A study of Mus musculus with 4 samples.

Results

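Granzyme C-F high CD8 T cells are tumour-infiltrating CD8 T cells that carry RNA of the linked granzyme genes Gzmc, Gzmd, Gzme and Gzmf. They were chosen by their counts of unique molecular identifiers (UMIs, one per captured RNA molecule). A member had at least 3 UMIs over Cd3d, Cd3e and Cd3g, at least 2 over Cd8a and Cd8b1, at least 3 over Gzmc, Gzmd, Gzme and Gzmf, none of the regulatory T cell gene Foxp3, none of the macrophage gene Csf1r and fewer than 10 of the melanocyte genes Mlana and Dct. The rule found 316 cells among 8677 kept cells (3.64%), with 62 in library S1, 46 in S2, 83 in S3 and 125 in S4. Without the granzyme requirement the same gate held 1088 CD8 T cells, of which 656 had no UMI of granzymes C to F (cells lacking granzymes C to F) and 116 had 1 or 2. The 4 rule genes are therefore described below without a test.

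The cells came from B16-F10 melanomas grown in C57BL/6 mice and taken on day 14. B16-F10 is a mouse melanoma cell line, and the cells were injected in matrigel. Libraries S1 and S2 were from tumours of Adar1 null B16-F10 cells, and S3 and S4 from tumours of control B16-F10 cells. Leukocytes were enriched on magnetic columns by CD45 and profiled by 10x Genomics 3′ single-cell RNA sequencing. The labels place the null genotype in the tumour line. Nothing in the labels ties a library to an animal. The p-values below therefore describe how far libraries spread, and that spread may be technical.

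Granzymes are serine proteases stored in the granules of cytotoxic lymphocytes and released with the pore-forming protein perforin (Prf1) onto a target cell. Granzyme B is the best known death-inducing member, whereas the mouse granzymes C to G form a rodent-specific cluster beside it that is induced late after strong activation. Serpins such as Serpinb9 inhibit granzymes and are known for shielding the killer cell from its own proteases.

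Per library, the kept cells numbered 1972 in S1, 1957 in S2, 1962 in S3 and 2786 in S4, and the members held 727179, 678408, 1076294 and 1540860 UMIs in that order. Median UMIs per cell were 11533.5 in members, 7679 in the cells lacking granzymes C to F and 8063 in gated macrophages. Of barcode sequences, 38 occurred in at least 2 libraries, 1 of them in a member, and none was a member in 2 libraries. Adar RNA in gated melanoma cells measured 9.68 (S1), 13.3 (S2), 11.4 (S3) and 11.5 (S4) counts per 1000000 UMIs (CPM), so the groups overlapped. A 3′ tag outside an edited stretch checks nothing about a deletion, and the labels do not give the edited position, so Adar RNA does not test the tumour labels. Members carried 17.9, 19.2, 13.9 and 9.09 CPM of Adar.

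The 5 granzymes C to G and Gzmb lie beside one another on chromosome 14, all on the minus strand, within 144.7 kb (RefSeq annotation of GRCm38.p6). The order by rising coordinate is Gzme (chr14:56117619-56120625), Gzmd (chr14:56129556-56132603), Gzmg (chr14:56156581-56159579), Gzmn (chr14:56165786-56174612), Gzmf (chr14:56205263-56211407), Gzmc (chr14:56231397-56241647) and Gzmb (chr14:56258836-56262334). The 250 bases upstream of each RefSeq start are shown because these genes were read out together in the same cells, while Gzmb was read out far more widely. For Gzmc and Gzmd the start used by the RefSeq promoter table is that of a transcript beginning inside the gene span given above, so those stretches lie partly or wholly within that span. All are written 5′ to 3′ on the gene's strand, from GRCm38.p6: Gzmc chr14:56234658-56234907, Gzmd chr14:56132594-56132843, Gzme chr14:56120626-56120875, Gzmf chr14:56211408-56211657, Gzmg chr14:56159580-56159829 and Gzmb chr14:56262335-56262584. Capitals mark exact matches, on either strand, to 3 motifs: the cAMP response element TGACGTCA, the RUNX motif TGTGGTT and the AP-1 motif TGANTCA. On the printed strand the RUNX motif reads AACCACA in Gzmc to Gzmg.
Gzmc: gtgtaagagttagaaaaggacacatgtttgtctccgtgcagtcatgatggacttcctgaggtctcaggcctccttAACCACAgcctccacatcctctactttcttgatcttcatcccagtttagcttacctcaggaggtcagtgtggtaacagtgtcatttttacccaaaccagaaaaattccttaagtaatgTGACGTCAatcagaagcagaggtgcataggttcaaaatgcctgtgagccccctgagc
Gzmd: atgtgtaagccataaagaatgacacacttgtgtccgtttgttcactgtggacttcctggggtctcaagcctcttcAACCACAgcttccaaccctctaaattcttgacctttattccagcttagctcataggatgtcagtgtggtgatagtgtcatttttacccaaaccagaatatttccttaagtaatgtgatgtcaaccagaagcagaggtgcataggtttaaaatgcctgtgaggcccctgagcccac
Gzme: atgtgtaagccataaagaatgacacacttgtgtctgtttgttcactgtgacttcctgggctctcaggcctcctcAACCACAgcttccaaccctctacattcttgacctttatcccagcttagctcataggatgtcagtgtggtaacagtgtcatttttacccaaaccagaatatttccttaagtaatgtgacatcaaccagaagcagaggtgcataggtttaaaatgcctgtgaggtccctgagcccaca
Gzmf: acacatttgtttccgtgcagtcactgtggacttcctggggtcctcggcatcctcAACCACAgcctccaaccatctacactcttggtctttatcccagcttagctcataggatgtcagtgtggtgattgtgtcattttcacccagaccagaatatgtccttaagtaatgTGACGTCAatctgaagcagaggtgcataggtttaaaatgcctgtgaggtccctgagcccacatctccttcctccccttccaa
Gzmg: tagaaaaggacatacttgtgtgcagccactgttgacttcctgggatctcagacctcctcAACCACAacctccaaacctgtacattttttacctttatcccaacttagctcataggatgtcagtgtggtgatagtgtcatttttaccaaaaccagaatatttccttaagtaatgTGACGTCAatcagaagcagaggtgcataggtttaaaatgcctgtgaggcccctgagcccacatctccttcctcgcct
Gzmb: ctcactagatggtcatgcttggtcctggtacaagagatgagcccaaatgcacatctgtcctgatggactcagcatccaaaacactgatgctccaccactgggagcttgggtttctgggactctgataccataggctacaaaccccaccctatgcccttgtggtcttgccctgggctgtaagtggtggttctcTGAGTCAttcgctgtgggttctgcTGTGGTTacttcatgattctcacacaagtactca

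The RUNX letters were in all 6 stretches, 175 to 169 bases before the start in Gzmc and Gzmd and 34 to 28 bases before it in Gzmb. The cAMP response element letters were in Gzmc, Gzmf and Gzmg, at 57 to 50, 82 to 75 and 77 to 70 bases before the start. They had no exact match in Gzmd, Gzme or Gzmb. The AP-1 letters matched in Gzmb alone of the 6. The 3 motifs did not overlap one another in these stretches. Among 32851 RefSeq promoters searched over the same length, 1.55% held TGACGTCA, 4.40% held TGTGGTT and 6.75% held TGANTCA, and a match is a description of letters only. Gzmd and Gzme were the closest pair, with 94.82% identity over the printed stretch and 90.04% over the transcripts. Their last 400 transcript bases, the part nearest to where 3′ reads fall, were 87.11% identical, and 0 of 311 windows of 90 bases there were shared exactly. How the authors' counting treated reads that match both genes is not given in the sources used here, so the split between Gzmd and Gzme is uncertain.

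Members made up 3.14% of kept cells in S1 (95% exact Clopper-Pearson interval 2.42 to 4.01), 2.35% in S2 (1.73 to 3.12), 4.23% in S3 (3.38 to 5.22) and 4.49% in S4 (3.75 to 5.32). Both Adar1 null libraries were below both control libraries, at 2.75% ± 0.561 (SD, n = 2) against 4.36% ± 0.181 (SD, n = 2). The difference was −0.67 on the log2 scale. The exact two-sided permutation test gave p = 0.333, the smallest p that 2 libraries against 2 can give. Thinning every cell to 3900 UMIs before applying the rule moved the log2 difference to −0.98. Intervals cover counting error only.

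Within the CD8 T gate the members' share was 22.5% in S1 (17.7 to 27.9), 13.7% in S2 (10.2 to 17.9), 33.2% in S3 (27.4 to 39.4) and 55.1% in S4 (48.3 to 61.7). The groups again did not overlap, at 18.1% ± 6.17 (SD, n = 2) in Adar1 null and 44.1% ± 15.5 (SD, n = 2) in control libraries, with a log2 difference of −1.29 and an exact two-sided permutation p of 0.333. Without S1 the log2 difference was −1.68, and without S4 it was −0.88. The remainder of the gate went the other way. Cells lacking granzymes C to F were 9.58%, 13.1%, 6.83% and 2.76% of kept cells in S1 to S4, and the whole gate was 14.0%, 17.1%, 12.7% and 8.15%. Shares of kept cells also depend on how many other cells each suspension held: gated macrophages numbered 228, 161, 361 and 823.

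**Figure D1:**
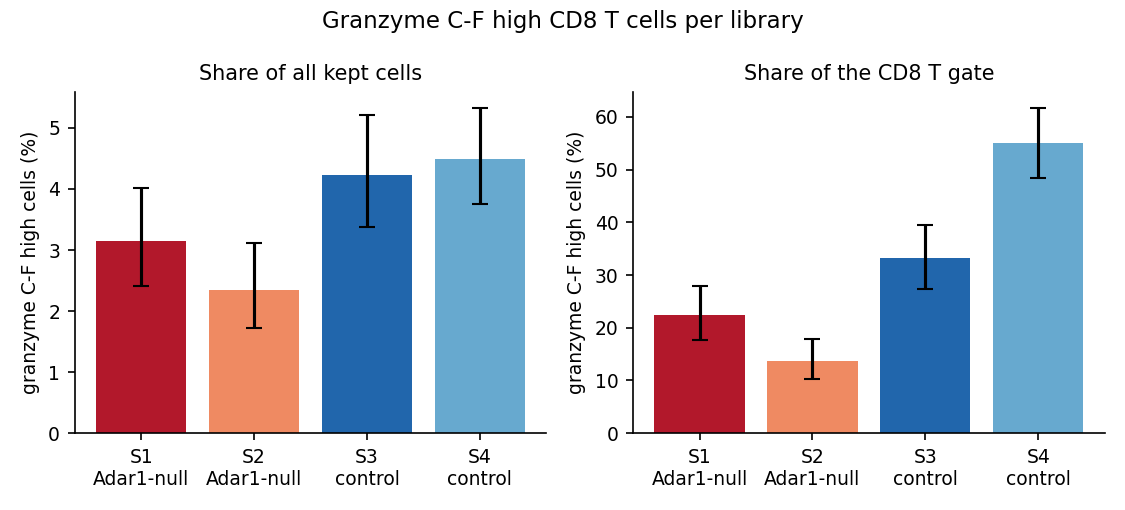
Share of granzyme C-F high CD8 T cells per library, as a percent of kept cells (left) and of the CD8 T gate (right), with 95% exact binomial intervals as error bars. Both Adar1 null libraries (S1, S2) lie below both control libraries (S3, S4) on either denominator, from 13.7% to 22.5% against 33.2% to 55.1% of the gate.

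Levels are given as CPM, computed from the summed UMIs of all members of a library. Gzmc, found with a UMI in 295 of 316 members (93.4%), stood at 1619 CPM in S1, 814 in S2, 2812 in S3 and 2987 in S4. Gzmf, found in 235 members (74.4%), stood at 1139, 600, 1986 and 5537 CPM, so S4 was far above the others. Gated macrophages held a Gzmc UMI in 3.12% and a Gzmf UMI in 2.92% of cells, at a median of 8063 UMIs against the members' 11533.5. Of the 46 macrophages with a Gzmf UMI, 42 were in S4. Where these UMIs came from was not tested.

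Gzmd stood at 248, 100, 880 and 1632 CPM in members of S1 to S4 and was found in 137 of them (43.4%). Gzme stood at 334, 66.3, 586 and 1193 CPM. For each of the 4 rule genes both control libraries lay above both Adar1 null libraries, with group means of 1216 ± 569 and 2899 ± 124 CPM for Gzmc, 174 ± 104 and 1256 ± 532 for Gzmd, 200 ± 189 and 890 ± 429 for Gzme, and 869 ± 381 and 3761 ± 2511 for Gzmf (SD, n = 2). S2 was lowest for every one of them. Among the 6566 genes tested within members, 16.2% also lay lower in both Adar1 null libraries than in both control libraries. The 4 rule genes ran together across cells, so they are not 4 separate observations. A few cells weighed heavily. The cell with most granzyme C to F UMIs held 2501 in S4, which was 14.3% of all such UMIs of that library, and the top cell of S2 held 24.9%. Without it, Gzmf in S2 was 293 CPM in place of 600.

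Gzmg, the neighbouring gene outside the rule, stood at 38.5, 4.42, 119 and 567 CPM in members of S1 to S4. It had a UMI in 7, 2, 13 and 28 members, in the same order. In the cells lacking granzymes C to F it was 0 in 3 libraries and 0.861 CPM in S3, but those cells were chosen for having no UMI of Gzmc to Gzmf. Gzmg did not pass the filter on low counts for the fit against those cells. Its counts were low there and also in members of S2, which held 3 UMIs. Between groups its means were 21.5 ± 24.1 CPM in Adar1 null and 343 ± 317 in control members, and 6.31 ± 6.78 against 292 ± 242 (SD, n = 2) without each library's top cell. Gzmg was not among the genes that edgeR called between groups within members. Gzmn, the remaining gene of the row, had UMIs in S4 alone, at 7.14 CPM.

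**Figure D2:**
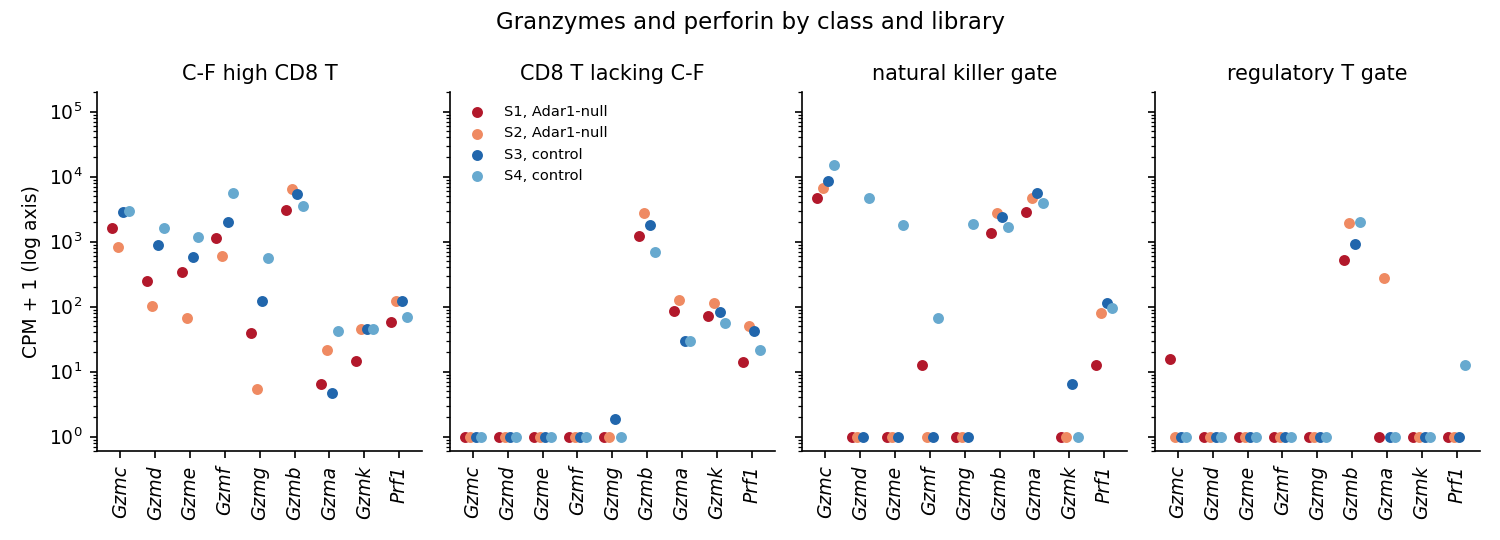
Granzyme and perforin levels (y axis, CPM plus 1 on a log scale) in members and in 3 other lymphocyte gates, with 1 point per library. Gzmc, Gzmd, Gzme and Gzmf chose the members; Gzmb is above 500 CPM in every library of every class, and Gzma is at 2878 CPM or more in the natural killer gate but at 127 CPM or less in both CD8 T classes.

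Members differed widely in how many of the 4 genes they read out. The number of granzyme C to F UMIs per member had a median of 24 in S1, 12 in S2, 34 in S3 and 50 in S4, and of 30.5 over all members. At 3900 UMIs per cell the medians were 9, 3, 13 and 18, in the same order. At least 50 such UMIs were found in 25.8% of members in S1, 13.0% in S2, 42.2% in S3 and 51.2% in S4. Control members were thus the richer per cell as well as the more frequent. At the edge of the rule, 22 members had exactly 3 UMIs and 31 cells outside it had 2. The cells with 3 held Gzmb at 1947 and Prf1 at 44.7 CPM, and those with 2 held 2814 and 41.3 CPM.

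All 4 genes were found together in 112 members (35.4%), which was 25.8% of members in S1, 13.0% in S2, 36.1% in S3 and 48.0% in S4. Gzmc was the only one found in 61 members (19.3%), at 32.3%, 37.0%, 21.7% and 4.8% in the same order. Gzmc with Gzmf and neither of the others was found in 71. Gzmc supplied the larger part of the granzyme C to F UMIs in S1, S2 and S3 (48.5%, 51.5% and 44.9%), whereas Gzmf led in S4 with 48.8%. Over the 316 cells thinned to 3900 UMIs, Gzmd and Gzme had the highest correlation of log2 counts plus 1 (Pearson 0.833), Gzmd and Gzmf 0.605, Gzmc and Gzmd 0.498, and Gzmc and Gzmf 0.357. These values are descriptions over cells that share libraries and the selection, and the likeness of Gzmd and Gzme in sequence bears on the first. Gzmc and Gzmb had 0.320.

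Other RNAs ran along the amount of granzyme C to F RNA in the CD8 T gate (0, 1 or 2, 3 to 9, 10 to 49 and at least 50 UMIs per cell, summed over the 4 libraries). Gzmb, the main apoptosis-inducing granzyme, stood at 1887, 2610, 3052, 3878 and 5651 CPM over these 5 bins, and Prf1 at 34.7, 39.7, 62.6, 72.3 and 121. Library by library, Gzmb increased at each step in S1, S2 and S3 and Prf1 in S2 and S3, whereas the other libraries dipped once. Tcf7, the transcription factor of stem-like T cells, went from 18.1 to 3.89, 1.01, 1.48 and 0 CPM, nearly all of the drop lying below the rule's minimum. The chemokine Ccl5 was 5540 CPM in the first bin and 2513 in the last. Deeper cells fill the higher bins more easily, and no test was made across bins.

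**Figure D3:**
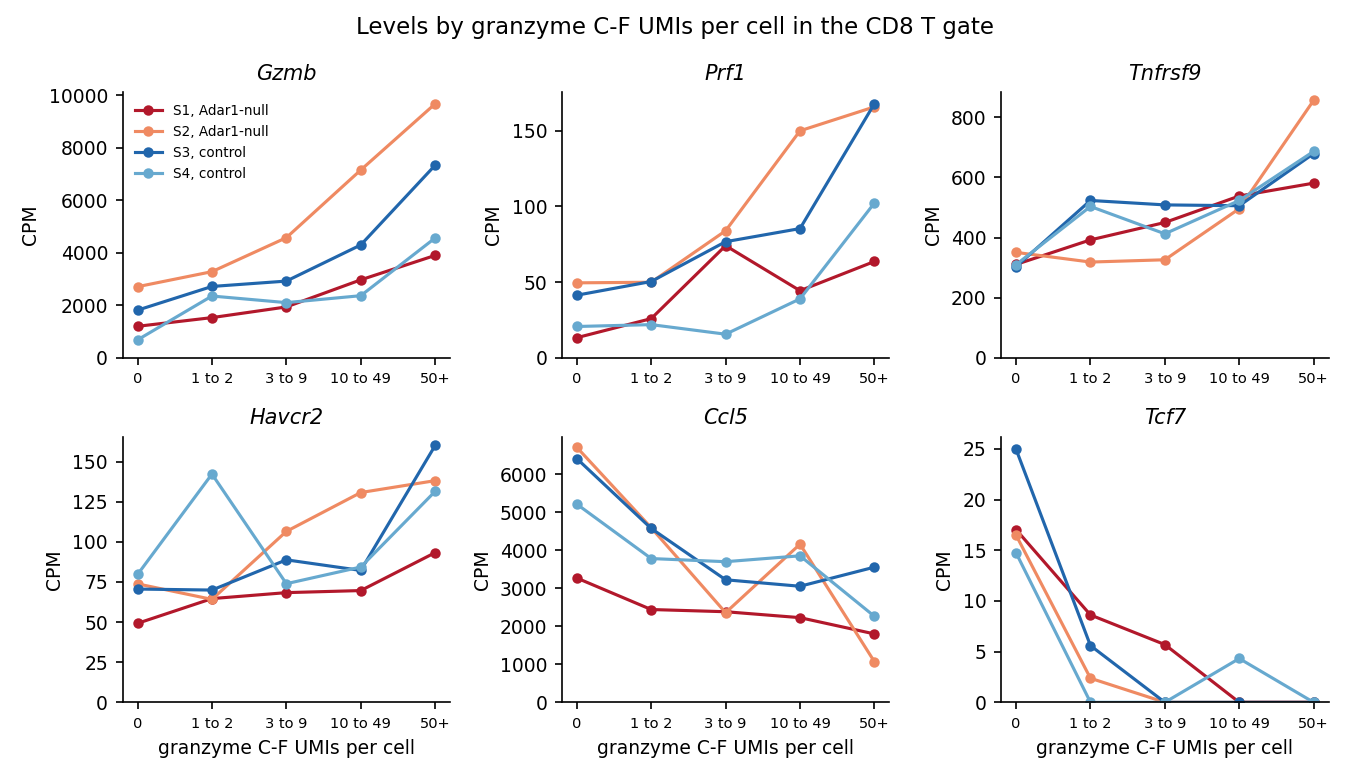
Levels of 6 genes (y axis, CPM on a linear scale) in CD8 T gate cells binned by their granzyme C to F UMIs (x axis), with 1 line per library. Gzmb is highest in the last bin of every library, whereas Tcf7 is highest in the bin with no such UMI, at 14.8 to 25 CPM.

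Members were compared with the cells lacking granzymes C to F from the same 4 libraries, with UMIs summed per library and class. edgeR's quasi-likelihood test, blocked by library, called 208 of 7031 genes higher in members (2.96%) and 219 lower (3.11%) at a Benjamini-Hochberg adjusted p under 0.05. DESeq2 called 53 and 55, of which 49 and 54 were among edgeR's calls. The contrast was one of protective serpins, Prf1, interleukin-2 and interleukin-1 receptors and glycolytic enzymes on the higher side. On the lower side were stem-like and naive T cell genes, Gzmk, Ccl5 and interferon-stimulated genes. Members were deeper cells, and at 3900 UMIs per cell 78 genes were higher and 70 lower.

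In the cytotoxic machinery, Prf1 stood at 57.8, 122, 123 and 68.8 CPM in members of S1 to S4 and at 13.3, 49.5, 41.3 and 20.7 CPM in the cells lacking granzymes C to F. Every library was higher in members, by 1.59 on the log2 scale (SE 0.15, adjusted p 4.54e-11). Gzmb was also higher in all 4 libraries, at 3023, 6383, 5430 and 3495 against 1199, 2709, 1814 and 682 CPM. Its log2 difference of 1.61 (SE 0.24) missed edgeR's threshold with an adjusted p of 0.0676. DESeq2 called it (log2 1.63, adjusted p 9.8e-09), as did edgeR without S4 (1.39) and at 3900 UMIs per cell (1.54), but not without S1, S2 or S3 (adjusted p 0.111 to 0.272). Gzmk, a granzyme of less differentiated CD8 T cells, fell from 69.4, 112, 82.7 and 54.6 to 13.8, 44.2, 44.6 and 44.1 CPM (log2 −1.07, SE 0.19, adjusted p 0.0013). Gzma, a granzyme shared with natural killer cells, was 5.50, 20.6, 3.72 and 40.9 CPM in members and 83.9, 127, 28.4 and 28.0 CPM in the others, with S4 going against S1 to S3. Of 15 other genes of the killing machinery 2 rose and 2 fell. The cystatin gene Cst7 rose by 0.47 and the lysosomal membrane gene Lamp1 fell by 0.86 on the log2 scale, and the granule gene Nkg7 did not pass (log2 −0.09).

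Serpinb9b, a serpin next to Serpinb9 in the same family, had the highest log2 difference of all named genes in the fit. It stood at 110, 35.4, 165 and 258 CPM in members and at 1.26, 1.24, 6.89 and 11.8 CPM in the cells lacking granzymes C to F. The lowest member library was thus above the highest of the others, with a log2 difference of 4.85 (SE 0.21, adjusted p 1.91e-24). Serpinb9, the granzyme B inhibitor, stood at 212, 255, 274 and 266 against 72.6, 125, 125 and 164 CPM (log2 1.10, adjusted p 6.57e-11). Serpinb6b was higher in all 4 libraries without passing the test (log2 1.07, adjusted p 0.129). Of 6 serpins tested 2 rose and none fell, with a list median of 0.71 on the log2 scale against 0.000672 over all genes. These serpins have near-identical relatives, and how reads shared between relatives were counted is not given in the sources used here.

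Receptors and ligands moved in both directions. Il2ra, the high-affinity chain of the interleukin-2 receptor, stood at 46.8, 103, 93.8 and 65.5 CPM in members against 21.5, 26.0, 26.7 and 32.5 (log2 1.58, adjusted p 1.5e-09). Il1r2, a decoy receptor for interleukin-1, stood at 39.9, 53.1, 113 and 93.5 against 10.1, 14.4, 12.9 and 45.7 CPM (log2 1.95, adjusted p 0.000174). Both were higher in members of every library. Of 10 costimulatory receptors 3 rose, namely Tnfrsf9 (4-1BB, log2 0.78), Tnfrsf4 (OX40, 0.76) and Tnfrsf18 (GITR, 0.44), and 5 fell, among them Cd27 (−0.45) and Icos (−0.39). Of 10 inhibitory receptors Havcr2 (TIM-3) rose by 0.66 and Cd160 fell by 0.59 on the log2 scale, while Pdcd1 (0.14), Lag3 (−0.23) and Ctla4 (−0.06) did not pass. Among 13 secreted cytokines and chemokines, Lta (lymphotoxin alpha, 1.65) and Csf1 (0.73) rose, and Ccl5 fell by 0.90 (adjusted p 4.54e-11). Lta rests on few UMIs, at 20, 26, 10 and 9 in members of S1 to S4, and 1 cell held 19 of the 26 in S2. Ifng, the main antiviral and antitumour cytokine of these cells, did not pass at 382, 559, 374 and 182 against 270, 475, 366 and 171 CPM (log2 0.23, adjusted p 0.111).

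Genes of less differentiated T cells were the lower ones. Tcf7 stood at 1.38, 0, 0 and 1.30 CPM in members and at 17.0, 16.5, 25 and 14.8 CPM in the cells lacking granzymes C to F. Of 11 naive, memory and stem-like genes 6 fell and none rose, among them Slamf6 (log2 −2.35), Dapl1 (−2.93) and Cd7 (−3.17), and the list median was −0.69. The survival gene Bcl2 stood at 22, 26.5, 21.4 and 24 against 71.3, 51.1, 74.0 and 69.3 CPM (log2 −1.51, adjusted p 1.43e-08), with no overlap between the classes. Cxcr3, the receptor for Cxcl9 and Cxcl10, fell by 3.25. Of 22 effector and exhaustion transcription factors, Irf8 (0.81) and Bhlhe40 (0.28) rose, and 4 fell, among them Tox (−0.73) and Eomes (−0.63). Of 24 genes of glycolysis and hypoxia 6 rose and none fell, namely Slc2a3 (a glucose transporter, log2 1.0), Tpi1, Eno1, Ldha, Aldoa and Pkm, the last 5 by 0.39, 0.34, 0.34, 0.32 and 0.29. Of 36 genes of G2 and M phase 1 rose, and of 32 of S phase 2 did.

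Interferon-stimulated genes were lower in members. Of 39 type I interferon-stimulated genes none rose and 12 fell, with a list median of −0.40. Examples are Rtp4 (log2 −1.66) and Irf7 (−0.87). DESeq2 called 3 of the 39 lower, and without S1 or S2 edgeR called 8 or 5. Of 21 interferon-gamma-induced genes 6 fell, among them Cxcl9 (−1.33), Cxcl10 (−0.97) and Iigp1 (−1.78). Markers of macrophages moved with these genes: 2 of 5 tested were lower in members, C1qa (−0.78) and C1qb (−0.50). The macrophage list summed to 235 to 925 CPM in members, 420 to 1031 CPM in the cells lacking granzymes C to F and 21755 to 56117 CPM in gated macrophages, with Csf1r at 0 in both T cell classes by the rule. Without the 18 members and 46 other cells that had at least 20 UMIs of MHC class II genes or 5 of collagen genes, 11 of 35 type I genes tested were called lower, 9 of them among the 12, and Ly6a was called higher. Of 18 interferon-gamma-induced genes 3 were called lower, all among the 6. The part of macrophage RNA in the remainder was not tested.

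Beyond the lists, the largest increases among well-expressed genes were in Ccdc184 (log2 2.73), Nebl (2.56), Serpine2 (a secreted protease inhibitor, 1.77), AA467197 (1.75), Tubb6 (a beta-tubulin, 1.55) and Gldc (the glycine decarboxylase, 1.20). Serpine2 stood at 97.6, 264, 236 and 288 against 40.4, 81.3, 77.5 and 48.7 CPM, and AA467197 at 326, 467, 699 and 493 against 104, 115, 170 and 217 CPM. Both had every library higher in members, which the rule for named genes required, and their class ranges did not overlap. The largest decreases after Bcl2 were in Cxcl9, Rgs10 (a G-protein signalling regulator, −1.32), Itgb1 (integrin beta-1, −1.17), Ifi27l2a (−1.17), Gtf2i (−1.17), 2310001H17Rik (−1.12), Klf2 (−1.11), Gzmk and Zfp36l1 (−1.03). Ifi27l2a lost its call in 3 of 14 alternatives, among them without S2 or S3 (adjusted p 0.232 and 0.167). Klf2, a factor of circulating T cells, lost it in 4 of 14, among them without S2 and with DESeq2 (adjusted p 0.175 and 0.0722). Cxcl9, 2310001H17Rik and Zfp36l1 lost it in 1 each, with equal cell numbers, thinning and DESeq2. Of 23 dissociation and immediate-early genes 7 fell and none rose.

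**Figure D4:**
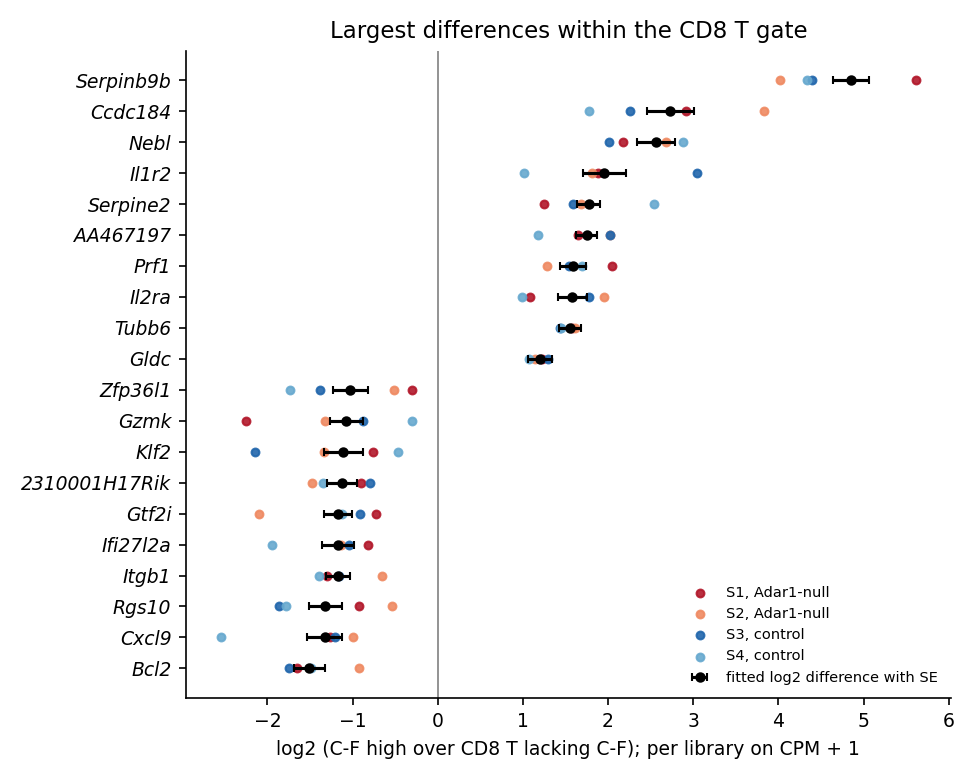
Log2 difference between members and CD8 T cells lacking granzymes C to F for 10 increases and 10 decreases. They are the largest among called genes averaging at least 50 CPM whose difference has the same sign in every library. Coloured points are single libraries on CPM plus 1. Black points are the edgeR estimate with its standard error, from 4.85 for Serpinb9b to −1.51 for Bcl2. That the libraries of a gene lie on the same side of 0 follows from the selection.

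Against gated natural killer cells, members shared Gzmc and differed in many receptors. The natural killer gate held 11, 26, 26 and 10 cells in S1 to S4, so its values rest on few cells. Gzmc stood at 4664, 6659, 8672 and 15042 CPM there, above the members of every library, whereas Gzmf was 11.7, 0, 0 and 66.9 CPM. A Gzmc UMI was found in 38 of the 73 natural killer cells (4, 10, 18 and 6 in S1 to S4). The summed Gzmc levels therefore do not describe every natural killer cell. Gzmd, Gzme and Gzmg had no UMI in natural killer cells of S1 to S3. In the 10 of S4 they stood at 4653, 1818 and 1845 CPM, above the members of that library. Only 2 of these 10 cells had a Gzmd UMI and 1 a Gzme UMI, so the Gzmd and Gzme levels do not describe the 10. edgeR called 159 of 4500 genes higher in members (3.53%) and 230 lower (5.11%). Gzmb was higher in members, at 3023, 6383, 5430 and 3495 against 1339, 2730, 2378 and 1671 CPM (log2 1.11, adjusted p 1.8e-07). Gzma was the reverse, at 5.50, 20.6, 3.72 and 40.9 against 2878, 4739, 5496 and 3944 CPM (log2 −7.94, adjusted p 0.0116). The ranges did not overlap for either gene.

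The inhibitory receptor Pdcd1 (PD-1) stood at 281, 282, 337 and 369 CPM in members and at 0, 10.5, 0 and 0 CPM in natural killer cells (log2 6.25, adjusted p 3.24e-10). Of 7 inhibitory receptors tested 4 rose, Havcr2 among them, and 1 fell, and of 16 T cell receptor and signalling genes 8 rose and 2 fell. Some called genes had no UMI in natural killer cells, so that members were at least 10.1-fold higher in Cd5, at least 14.9-fold in Themis, at least 18.2-fold in Gldc and at least 27.6-fold in Gm8369, taking 3 UMIs over all 4 libraries as the floor. Of 13 genes tested from the list of killer lectin-like and natural killer receptors with their Fc receptors and adaptors, none rose and 10 fell. The gate's own genes Ncr1 and Klrb1c were left out of the test. Klra8 and Klra4, receptors of natural killer cells, had no UMI in members and stood at 106 to 308 CPM and 200 to 388 CPM in natural killer cells. The signalling adaptor Tyrobp fell by 4.47, the chemokine Xcl1 by 4.07 and Bcl2 by 3.42 on the log2 scale. Ifng rose by 1.77, whereas Prf1 did not pass (0.28, adjusted p 0.641).

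Against gated regulatory T cells (20, 18, 8 and 11 cells), edgeR called 345 of 4364 genes higher in members (7.91%) and 395 lower (9.05%). Of 6 serpins 4 rose and none fell. Serpine2, Serpinb9b and Gldc had no UMI in regulatory T cells, which puts members at least 31.6-fold, 22.7-fold and 13.7-fold higher. Prf1 (log2 5.08) and the lectin-like receptor Klrd1 (CD94, 3.71) rose as well. Gzmb did not pass at 513, 1946, 925 and 1978 CPM in regulatory T cells (log2 1.92, adjusted p 0.0759), although each member library was higher and DESeq2 called it (1.96, adjusted p 6.53e-09). Without S4 edgeR called it too (2.30). Genes typical of regulatory T cells were lower in members: Izumo1r (folate receptor 4, −5.30), Maf (−5.23), Il10 (−5.40), Ikzf2 (Helios, −3.09), Ctla4 (−2.23), Icos (−2.08) and Tnfrsf4 (−2.01). Of 26 type I interferon-stimulated genes 20 fell and 1 rose. Macrophage markers summed to 243 to 1943 CPM in regulatory T cells and to 235 to 925 CPM in members, and their part was not tested.

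Within members, Adar1 null and control libraries differed in few genes. edgeR called 7 of 6566 genes higher (0.107%) and 2 lower (0.0305%) in Adar1 null members. At an unadjusted p under 0.05 it counted 187 and 195, and DESeq2 called 1 and 0, none of them among these 9. Libraries did not overlap between groups in 18.5% of genes upward and 16.2% downward, so separation of 2 libraries from 2 is common. The calls were made up of Il1r2 and Hilpda on the lower side and of Rpl23a, Lta, Cxcl10, Bcl2l14, Naaa, Cbfa2t3 and H2-DMb1 on the higher side.

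Il1r2 stood at 39.9 and 53.1 CPM in Adar1 null members and at 113 and 93.5 CPM in control members (log2 −1.16, SE 0.23, adjusted p 0.0284). Hilpda, a hypoxia-inducible lipid droplet protein, stood at 103 and 114 against 196 and 241 CPM (log2 −1.04, SE 0.18, adjusted p 0.0125). Rpl23a, a ribosomal protein gene with near-identical processed copies and so uncertain, stood at 165 and 221 against 79.9 and 98.6 CPM (log2 1.08, SE 0.19, adjusted p 0.0125). The rule for named genes required groups that do not overlap, so the lack of overlap in these 3 adds no support. Over 13 alternatives the call of Il1r2 was lost in 6, that of Rpl23a in 4 and that of Hilpda in 3, and thinning to 3900 UMIs and DESeq2 each lost all 3. Without S1 Il1r2 stood at −0.96 (adjusted p 0.12), and without S2 Rpl23a stood at 0.85 (adjusted p 0.0604).

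The other 6 higher genes all average below 50 CPM in the Adar1 null members. Lta and Cxcl10 are named as list genes, whereas Bcl2l14, Naaa, Cbfa2t3 and H2-DMb1 were named after their values were seen. In the order S1 to S4, Bcl2l14 stood at 27.5, 17.7, 1.86 and 0.649 CPM and Naaa at 50.9, 29.5, 6.5 and 9.09 CPM. Cells with MHC class II or collagen RNA moved with these calls. They numbered 7 of 62 members in S1, 5 of 46 in S2, 2 of 83 in S3 and 4 of 125 in S4, and held 19 of the 20 and 12 of the 12 Bcl2l14 UMIs in S1 and S2. They also held 33 of 37 and 14 of 20 Naaa UMIs, 11 of 12 and 12 of 13 Cbfa2t3 UMIs, 29 of 33 and 18 of 22 H2-DMb1 UMIs, and 8 of 14 and 14 of 30 Cxcl10 UMIs. A single cell held 19 of the 26 Lta UMIs of S2. Without those 18 cells Rpl23a alone was called (log2 1.15, adjusted p 0.00267), and Il1r2 stood at −1.18 (adjusted p 0.0638) and Hilpda at −0.88 (adjusted p 0.066).

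The lists fixed for cytotoxicity gave no call between groups in members. Mean Gzmb was 4703 ± 2376 CPM in the null group and 4462 ± 1368 CPM in controls (SD, n = 2; log2 0.07, adjusted p 0.998), and S2 was the highest and S1 the lowest library. Prf1 (−0.08) and Serpinb9 (−0.23) did not pass either. Serpinb9b stood at 110 and 35.4 against 165 and 258 CPM without passing (log2 −1.56, SE 0.69, adjusted p 0.916). All 6 serpins tested had negative estimates, with a list median of −0.26 (log2), against −0.00478 over all 6566 genes.

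Of 34 type I interferon-stimulated genes tested, edgeR called none in either direction, with 2 higher and 0 lower at an unadjusted p under 0.05 and none called by DESeq2. Their median estimate was 0.27, and 24 of the 34 were positive. Leaving out S1, S2, S3 or S4 moved it to 0.63, −0.000428, 0.52 or 0.00228, so it was near 0 without S2 or S4. Over the whole CD8 T gate, which does not use the granzyme rule, edgeR called none of 49 and DESeq2 called 2 higher. At an unadjusted edgeR p under 0.05, 19 were higher and 0 lower. The median was 0.44 and 45 were positive. Of that gate's 1088 cells, 656 lacked granzymes C to F. In those, the list's median log2 (CPM plus 1), centred per gene over 34 genes, was 0.04, 0.40, −0.03 and −0.27 in S1 to S4. S1 and S3 were thus close, and S2 and S4 lay furthest apart. Over the whole gate edgeR called 2 of 8995 genes higher (0.0222%) and 2 lower (0.0222%). The lower ones were AA467197, at 167 and 187 against 406 and 381 CPM (log2 −1.19, adjusted p 0.0044), and Il1r2, at 17.7 and 22.1 against 56.6 and 74.6 CPM (−1.75, adjusted p 0.0106). Both genes are also among those higher in members than in cells lacking granzymes C to F. The higher ones were Cxcl10 (2.09) and the collagen gene Col1a1 (5.85), a fibroblast marker. Single cells held 108 of 109 Col1a1 UMIs in S1 and 112 of 116 in S2. For Cxcl10 a single cell held 25 of 110 UMIs in S1 and 67 of 187 in S2, and cells with MHC class II or collagen RNA held 59 and 89.

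**Figure D5:**
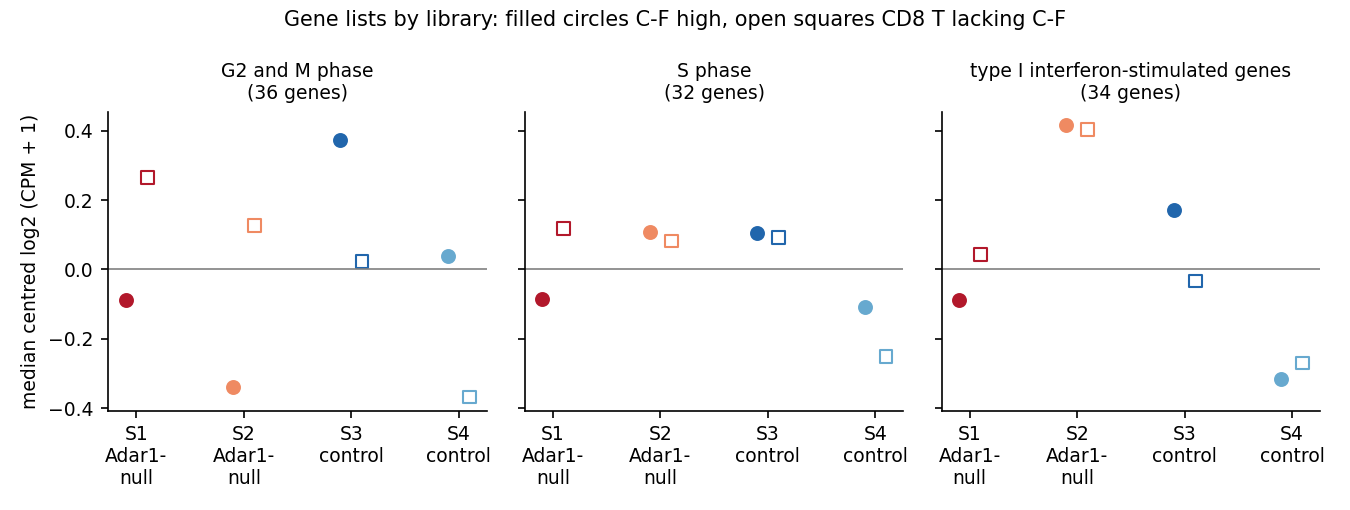
Median over a list's genes of log2 (CPM plus 1), centred per gene over the 4 libraries of a class (y axis), for each library (x axis), in members (filled circles) and CD8 T cells lacking granzymes C to F (open squares). In G2 and M phase genes the control members (0.37 and 0.04) lie above the Adar1 null members (−0.09 and −0.34), and the cells lacking granzymes C to F run in the opposite order.

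For genes of G2 and M phase the estimated Adar1 null effect leaned downward in members, with few calls. Within members none of 36 was called by edgeR or DESeq2, but 33 were lower in Adar1 null (median −0.45), 11 of them at an unadjusted p under 0.05 and 0 higher. In 21 of the 36 the libraries did not overlap between groups, all in the lower direction, against 16.2% of all 6566 genes in that direction. The interaction, that is the Adar1 null effect in members less that in the cells lacking granzymes C to F, was negative in all 36, with a median of −0.72 against −0.00711 over all 7719 genes. edgeR called 3 of the 36 (Birc5, Ube2c and Plk1), among 7 genes (0.0907%) with a more positive and 11 (0.143%) with a more negative effect in members. By the same test 25 of the 36 had an unadjusted p under 0.05. Genes of this list belong to one stage of dividing cells, so these counts are not 36 separate observations. DESeq2 called no gene of the whole table in either direction, with 30 more positive and 19 more negative at an unadjusted p under 0.05.

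Birc5 (survivin, needed for chromosome segregation) measured 307 and 314 CPM in the Adar1 null members, and 409 and 347 CPM in the control ones. In the cells lacking granzymes C to F it stood at 352 and 351 against 285 and 207 CPM. Adar1 null libraries were thus the lower ones in members and the higher ones in the other class, with an interaction of −0.76 (SE 0.16, adjusted p 0.0167). Ube2c, a ubiquitin-conjugating enzyme of mitotic exit, stood at 351, 268, 419 and 396 CPM in members of S1 to S4 and at 348, 360, 319 and 218 CPM in the others (−0.77, adjusted p 0.033). The count of called genes of this list was 1, 1, 8 and 0 without S1, S2, S3 and S4, and the median stayed between −0.64 and −0.78. Only 77 cells lacking granzymes C to F came from S4, which had the lowest levels in that class. For S phase genes none of 32 was called in the interaction, with 0 more positive and 1 more negative at an unadjusted p under 0.05 and none called by DESeq2.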

How the data were processed

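Droplet 3′ RNA sequencing (10x Genomics, 4 libraries) was processed by the authors; the submitters' processing notes name Cell Ranger, Seurat 2.2.0 and the mm10 build, with no roles or settings. The authors deposited UMI counts per gene and barcode as whole numbers. Of 8838 barcodes, 8677 were kept: those with 500 genes or more and a mitochondrial share of UMIs no higher than 10%. No barcode had fewer than 3961 UMIs. Scrublet scores over 0.1 marked 3 members and 108 kept cells (1.24%), which stayed in the main analysis.

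The members and gene lists were chosen with earlier results of these data known. For each library, the counts of a class were added up. Genes passing edgeR's filterByExpr were fitted with edgeR 4.0.16 (TMM, robust quasi-likelihood; R 4.3.3) and adjusted by Benjamini-Hochberg over all genes of a fit. Members against another class were blocked by library, because both classes came from each library. DESeq2 1.42.0 was the other tool. All 4 libraries entered each fit. Shares were compared by exact two-sided permutation over 6 groupings of 4 libraries. The natural killer gate required no CD3 UMI, at least 2 of Ncr1 and Klrb1c and no Csf1r; the regulatory T gate at least 3 CD3 UMIs, at least 1 Foxp3 UMI, no CD8 and no Csf1r. Genes named outside the lists were the 10 with the largest change each way among called genes averaging at least 50 CPM whose libraries went one way. Where fewer than 10 were called, the 5 of lowest p were added. Of 512 list genes, 11 were not analysed here. The fits were run on counts simulated with large changes, the same dispersion for every gene and no library effect, a simpler setting than these data. That run does not measure how often calls in these data are wrong. Other settings were no filter, DESeq2 size factors, a granzyme minimum of 2 or 5, thinning to 3900 UMIs, equal cell numbers (46 and 77), leaving out doublet-scored cells or each library, and, added after seeing the data, leaving out cells with MHC class II or collagen UMIs.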

Additional observations from a re-analysis of the deposited data

Results flagged for a closer look

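The Adar1 null effect differed between members and CD8 T cells lacking granzymes C to F for 18 genes (edgeR interaction, adjusted p under 0.05, log2), and 9 of them averaged at least 50 CPM and met the rule for named genes. The other 9, Plk1 and Areg among them, did not meet it. They include Col3a1, Timp1, Serping1 and Sparc, whose UMIs came mostly from single cells lacking granzymes C to F. In S1 a single such cell held 102 of 104, 606 of 608, 123 of 123 and 227 of 235 UMIs, in that order. The count of 18 is therefore not a count of differences spread over many cells. More negative in members were Apoe (−1.13), Tubb4b (−0.87), Cdca3 (−0.84), Ube2c (−0.77), Birc5 (−0.76) and H2afv (−0.69). Of these, Tubb4b, Cdca3, Ube2c and Birc5 belong to dividing cells. Tubb4b, a beta-tubulin, stood at 242, 206, 409 and 254 CPM in members of S1 to S4 and at 280, 255, 233 and 187 CPM in the other cells. Cdca3, a mitotic entry gene, stood at 155, 161, 195 and 201 against 198, 184, 134 and 124 CPM. For both genes the Adar1 null libraries were the lower ones in members and the higher ones in the other class. H2afv, a histone variant gene, stood at 282, 305, 411 and 437 against 479, 449, 418 and 388 CPM, the same crossed order.

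More positive in members were Penk (2.2), Psap (0.83) and Fth1 (0.61). Penk, the opioid precursor proenkephalin, stood at 120, 19.2, 22.3 and 96.7 CPM in members and at 20.2, 2.06, 26.7 and 53.1 CPM in the others, so its member libraries overlapped between groups. Fth1, the ferritin heavy chain, stood at 2710, 2953, 2426 and 3016 against 3098, 2615, 3632 and 4480 CPM, also with overlap in members. Apoe and Psap are abundant in macrophages. Apoe stood at 103, 19.2, 57.6 and 484 CPM in members and at 261, 38.4, 80.1 and 478 CPM in the others. Without cells with MHC class II or collagen UMIs the calls of Apoe (−0.71, adjusted p 0.728), Psap (0.39, adjusted p 0.884) and H2afv (−0.62, adjusted p 0.128) were lost and those of the other 6 were kept. DESeq2 called none of the 9.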

How the results depend on the processing

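No paired analysis was possible because the library names carry no replicate number that is shared between the groups. Against CD8 T cells lacking granzymes C to F (208 genes higher, 219 lower), DESeq2 called 53 and 55, thinning to 3900 UMIs 78 and 70, and equal cell numbers 121 higher. Leaving out single libraries gave 123 to 163 higher and 142 to 210 lower, the lowest of both without S3. Each of the 427 calls that could be tested kept its sign in every alternative except thinning, where 350 of 352 did. Against natural killer cells (159 and 230), DESeq2 called 90 and 150, no filter on low counts 362 higher, and single libraries left out 86 to 158 and 121 to 224, the lowest without S3 and S2. Against regulatory T cells (345 and 395), DESeq2 called 166 higher, no filter 723 higher, and single libraries left out 217 to 316 and 272 to 370, the lowest without S1 and S2.

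Between groups within members (7 and 2), DESeq2 called 1 and 0, no filter 20 and 12, thinning 1 and 4, a granzyme minimum of 5 gave 1 lower, and leaving out cells with MHC class II or collagen UMIs 1 and 0. Leaving out S1, S2, S3 or S4 gave 19, 21, 30 or 26 higher and 16, 6, 48 or 20 lower. In the interaction (7 and 11), DESeq2 called 0 and 0, no filter 20 and 23, leaving out the MHC class II and collagen cells 4 and 5, and single libraries left out 5 to 42 and 5 to 23. The cause of these shifts was not tested. The member share of kept cells moved from −0.67 to −0.98 (log2) with thinning and ran from −0.89 to −0.47 over single libraries left out, and that of the CD8 T gate from −1.68 to −0.88. Ccnd2, not called between groups, was −0.21 after thinning, against the direction of the unthinned estimate.

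With 46 to 125 members a library and 2 libraries a group, no exact test of a share can pass 0.05, and levels of a few CPM rest on single UMIs.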
